A study of Mus musculus with 22 samples.

Results

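Collagens and the other genes of the fibrous matrix were followed across 4 treatment groups of mouse pancreatic tumours. The 45 genes were taken by name from a table of 17966 genes. They comprise 18 collagen genes and 27 genes for fibronectin and elastic fibre components, small leucine-rich proteoglycans, matricellular proteins, cross-linking and processing proteins, and markers of fibroblasts and myofibroblasts. All 45 were found by name and all 45 passed the filter on low values that left 14278 genes to test. The lowest value of any of them was 21 reads, for Ogn in 1 tumour, so none rests on a few reads.

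RNA was measured in 22 tumours grown in the mouse pancreas from implanted PDA.7940B cells, a polyclonal mouse line of pancreatic ductal adenocarcinoma. The host genotype is given as WT. In the beta-glucan group (n = 6) mice received 1 intravenous dose of 1.2 mg, and in the anti-CD40 group (n = 6) 1 intraperitoneal dose of 0.1 mg of the FGK45 antibody. The combination group (n = 5) received both agents, with doses not stated for that group, and the untreated group (n = 5, replicates 1, 2, 3, 5 and 6) received neither. Treated tumours were taken 10 days after treatment. Beta-glucan is a glucose polymer of yeast cell walls that binds the myeloid receptor Dectin-1, and anti-CD40 is an agonist of a receptor on antigen-presenting cells. The design asks how each agent and their combination alter the tumour. An implanted line gives tumours of 1 genetic origin, and strain, sex and age are not used here.

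In pancreatic ductal adenocarcinoma a dense stroma surrounds the malignant ducts, and most of its fibrous protein is made by cancer-associated fibroblasts. Collagen types I, III and V form the banded fibrils, with type V needed to start them; type IV forms the sheet of the basement membrane and type VI a beaded network around cells. Small leucine-rich proteoglycans coat the fibrils and set their diameter, fibronectin is laid down as a provisional matrix, and lysyl oxidases cross-link the chains. Myofibroblasts are the contractile, alpha smooth muscle actin-positive state of these fibroblasts.

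The promoters of 4 members are shown because they stand for fibril chains and for the proteoglycans that coat fibrils. Of the chains, Col3a1 rose with beta-glucan and the combination and Col5a1 with all 3 treatments. The proteoglycan genes Fmod and Ogn rose with anti-CD40 and the combination. Each run is the 250 bases before the RefSeq start of the gene on GRCm38.p6, read 5′ to 3′ on the gene's strand, which is the plus strand for all 4. The windows are chr1:45311288-45311537, chr2:27886175-27886424, chr1:134037004-134037253 and chr13:49607765-49608014. Capitals mark matches, on either strand, to 4 motifs: the TATA box (letters TATAAA), the CCAAT box (CCAAT), the GC box (letters GGGCGG) and the TEAD factor motif (letters GGAATG).
Col3a1: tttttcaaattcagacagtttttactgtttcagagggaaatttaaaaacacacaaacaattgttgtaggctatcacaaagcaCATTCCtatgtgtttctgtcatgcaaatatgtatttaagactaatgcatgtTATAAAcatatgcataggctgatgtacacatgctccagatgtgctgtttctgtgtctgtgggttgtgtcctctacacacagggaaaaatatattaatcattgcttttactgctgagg
Col5a1: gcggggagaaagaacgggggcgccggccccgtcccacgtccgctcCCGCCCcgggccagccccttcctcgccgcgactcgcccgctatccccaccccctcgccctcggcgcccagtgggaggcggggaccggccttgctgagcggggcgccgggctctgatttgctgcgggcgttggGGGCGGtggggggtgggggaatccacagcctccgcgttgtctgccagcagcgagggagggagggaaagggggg
Fmod: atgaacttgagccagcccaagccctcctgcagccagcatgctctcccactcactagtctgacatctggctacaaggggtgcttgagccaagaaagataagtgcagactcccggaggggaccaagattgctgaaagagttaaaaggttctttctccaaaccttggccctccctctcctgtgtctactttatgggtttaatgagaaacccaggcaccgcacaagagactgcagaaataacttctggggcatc
Ogn: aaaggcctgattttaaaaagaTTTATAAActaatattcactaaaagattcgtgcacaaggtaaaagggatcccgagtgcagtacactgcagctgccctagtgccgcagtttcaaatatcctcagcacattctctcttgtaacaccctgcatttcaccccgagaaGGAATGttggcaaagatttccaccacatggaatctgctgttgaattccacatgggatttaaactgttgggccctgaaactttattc

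Col3a1 had TATAAA on the gene's strand from 117 to 112 bases before the start and GGAATG on the other strand from 168 to 163. Col5a1 had GGGCGG at 205 to 200 on the other strand and at 73 to 68 on its own. Ogn had TATAAA on both strands at 229 to 222, 2 matches that overlap, and GGAATG at 86 to 81, while Fmod had none of the letters searched. Of the 45 members 28 had a promoter in the table used. TATAAA was found in 17.9% of these 28 and in 12.4% of all 32851 promoters, CCAAT in 32.1% and 33.8%, GGGCGG in 60.7% and 32.7%, and GGAATG in 17.9% and 12.6%. The CArG box was found in 0 of the 28 and in 1.47% of all. The member shares count genes with a match in any window, and Col18a1, Col6a2, Fbln1, Postn and Tnc had 2 windows each. The shares of all promoters count single windows, so the member shares can be raised beside them. These matches describe the letters of the windows only.

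Depth was 6.33 to 21.2 M reads per tumour, with 7.13 to 8.74 M in the beta-glucan, 6.33 to 21.2 M in the anti-CD40, 12.2 to 18.8 M in the combination and 7.38 to 9.34 M in the untreated group. Levels below are normalized counts, that is read counts the authors scaled by 1 size factor per tumour; since reads come from the 3' end of transcripts, a level is compared between tumours and not between genes. A log2 value is a difference of group means of log2(normalized count + 1) with its standard error, and a gene rose or fell where limma's adjusted p over all 14278 genes was under 0.05. In bulk tissue, fewer cells of a type and less RNA per cell cannot be told apart. Groups also differed in digestive enzyme (acinar) RNA of the surrounding pancreas, which took 0.499 to 15.6% of reads with beta-glucan, 0.560 to 59.5% with anti-CD40, 0.533 to 31.8% with the combination and 0.0173 to 16.2% in untreated tumours. It was over 30% in 4 tumours (anti-CD40 2 and 6, combination 4 and 5) and over 20% in 7 (also anti-CD40 3 and 4 and combination 2). Untreated tumour 6 stood apart in its group: it was the highest of the 5 for 27 of the 45 members. Anti-CD40 tumour 5 was the highest of its 6 for 26 members, and anti-CD40 tumour 1 for 13. These are the only anti-CD40 tumours not over 20% acinar. Calls that changed when untreated tumour 6 was left out are given with each gene.

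Fibrous matrix RNA was higher in treated than in untreated tumours for many members, and most broadly with the combination. With beta-glucan 15 of the 45 members rose (33.3%, against 5.09% of all genes tested), led by fibril collagens and Angptl2. With anti-CD40 13 rose and 4 fell (28.9% and 8.89%, against 11% and 7.56% of all genes), with proteoglycans among the higher and Tnc and Tagln among the lower; the share that fell was close to that of all genes. With the combination 30 rose and 2 fell (66.7% and 4.44%, against 18.2% and 15.8% of all genes). The median member stood at log2 0.78 with beta-glucan, 0.55 with anti-CD40 and 1.31 with the combination, where the median of all genes was 0.02, 0.00 and -0.01. Rescaling to equal totals moved the median of all genes to 0.07, -0.55 and -0.45. The member medians were then 0.83, -0.03 and 0.85, so the sign with anti-CD40 turned although it stayed above that of all genes. With this scaling 1 member rose with beta-glucan, 3 rose and 4 fell with anti-CD40, and 12 rose and 2 fell with the combination. In either direction 1.8%, 16.9% and 25.5% of all genes were then called. The share of members called thus stood much nearer that of all genes than as reported. The 3 comparisons share the untreated tumours. No member was called lower with beta-glucan by limma (1.32% of all genes were), 0 had an unadjusted p under 0.05, and edgeR and DESeq2 on recovered reads also called 0.

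The groups did not overlap at all for part of the members. All 6 beta-glucan tumours lay above all 5 untreated tumours for 9 members, where 3.98% of all genes did so. For anti-CD40 the counts were 3 above and 2 below (background 5.03% and 4.08%), both near the background, and for the combination 19 above (background 11.7%). By group means the combination was the highest of the 4 groups for 33 members, beta-glucan for 7, anti-CD40 for 0 and untreated for 5, and untreated was the lowest for 29. This order was not counted over all genes, so it cannot be said whether these counts are unusual. Untreated tumour 6 bore on the beta-glucan contrast: without it 24 members rose with beta-glucan in place of 15. Without untreated tumour 5, 11 in place of 17 members were called with anti-CD40.

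The members took 2.60 to 3.91% of all reads with beta-glucan, 0.404 to 3.38% with anti-CD40, 2.22 to 4.69% with the combination and 1.33 to 1.89% in untreated tumours. Every beta-glucan and every combination tumour lay above every untreated tumour on this measure, while the anti-CD40 tumours spread from below to above the untreated ones. With acinar and islet reads left out of the total, the shares were 2.67 to 4.24%, 1.01 to 3.47%, 3.25 to 4.72% and 1.38 to 2.26% in the same order. The anti-CD40 tumours again overlapped the untreated ones.

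**Figure D1:**
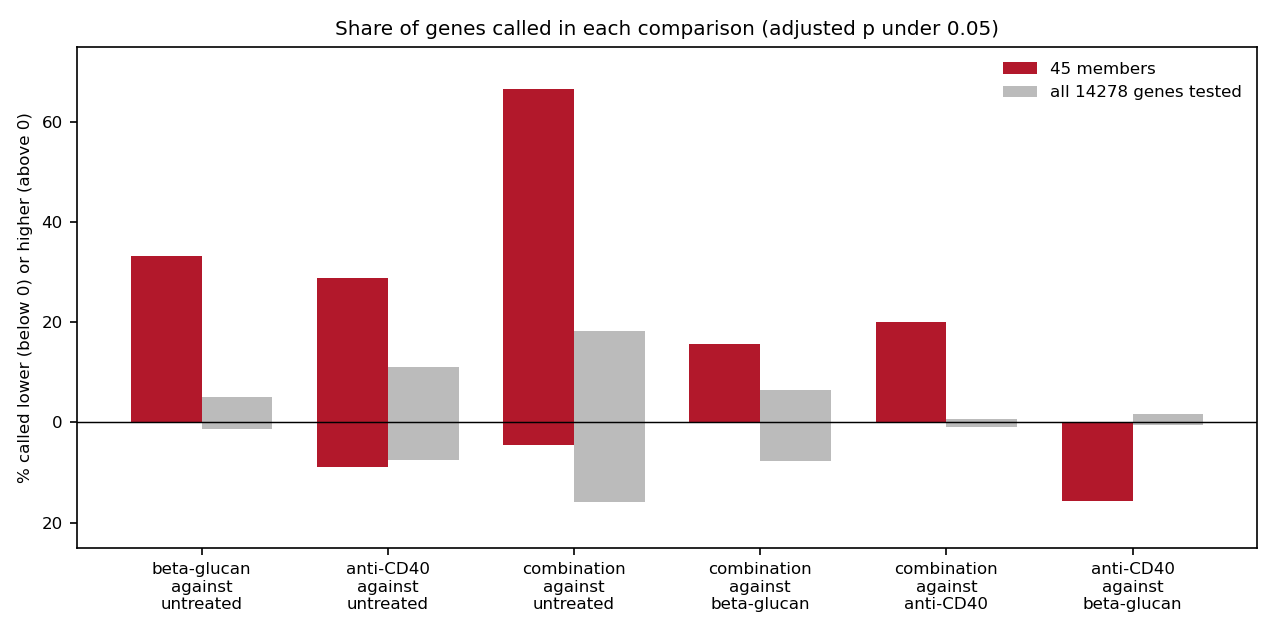
Share of genes called higher (bars above 0) and lower (bars below 0) at an adjusted p under 0.05 in each comparison, in percent, for the 45 members beside all 14278 genes tested. The members' bars reach 33.3% with beta-glucan, 28.9% with anti-CD40 and 66.7% with the combination against untreated, beside 5.09%, 11% and 18.2% of all genes.

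Fibroblast markers that are not members moved in the same comparisons. Of 10 such genes (Pdgfra, Pdpn, Dpt and others) 4 rose with beta-glucan, 4 with anti-CD40 and 9 with the combination, and their summed normalized count was 4928 to 6675, 4071 to 8875 and 7212 to 12260.2, against 2112 to 5629.8 in untreated tumours; 1 of the 10 markers was at 0 in 1 beta-glucan, 2 anti-CD40 and 3 untreated tumours, and no marker was at 0 in the other 16. Reads of the 45 members per read of these markers numbered 41.5 to 48.3 with beta-glucan, 31.3 to 38.5 with anti-CD40, 33.6 to 40.4 with the combination and 37.9 to 60.4 in untreated tumours, where tumour 6 had the lowest value and the other 4 had 49.9 to 60.4. Tumour epithelium markers (Epcam, Krt19 and others) summed to 9643 to 23771, 4169 to 21091 and 3539 to 8246, against 26237 to 36596: 2, 6 and 8 of 10 fell. Endothelial markers rose for 2, 4 and 7 of 8, macrophage markers for 4, 8 and 10 of 10, and pericyte and smooth muscle markers for 1, 1 and 3 of 8. Of all genes 5.09%, 11% and 18.2% rose in these comparisons, and 1.32%, 7.56% and 15.8% fell. The part of these cell types in the matrix results was not tested.

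Across the 3 comparisons against untreated, 8 members rose in all of them: Col5a1, Col15a1, Col6a2, Col16a1, Fbn1, Dcn, Loxl1 and Angptl2. A further 6 rose with beta-glucan and the combination (Col1a1, Col3a1, Col5a3, Thbs2, Fap and Pdgfrb) and 5 with anti-CD40 and the combination (Col6a1, Eln, Lum, Fmod and Ogn). In 11 the rise passed with the combination alone of the 3: Col1a2, Col5a2, Col4a2, Col14a1, Fbln1, Mfap4, Mfap5, Bgn, Sparc, Lox and Gas1. Fn1 passed with beta-glucan alone, Fbln2, Thbs1 and Tnc fell with anti-CD40 alone, Tagln fell with anti-CD40 and the combination, and Col18a1 fell with the combination. None of the 3 comparisons called Col11a1, Col4a1, Col8a1, Col6a3, Col12a1, Postn, Loxl2, Pcolce or Acta2. These patterns were not counted over all genes, so it cannot be said whether their sizes are unusual. A pattern of calls is not a test of a difference between treatments, and those tests are given further on.

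**Figure D2:**
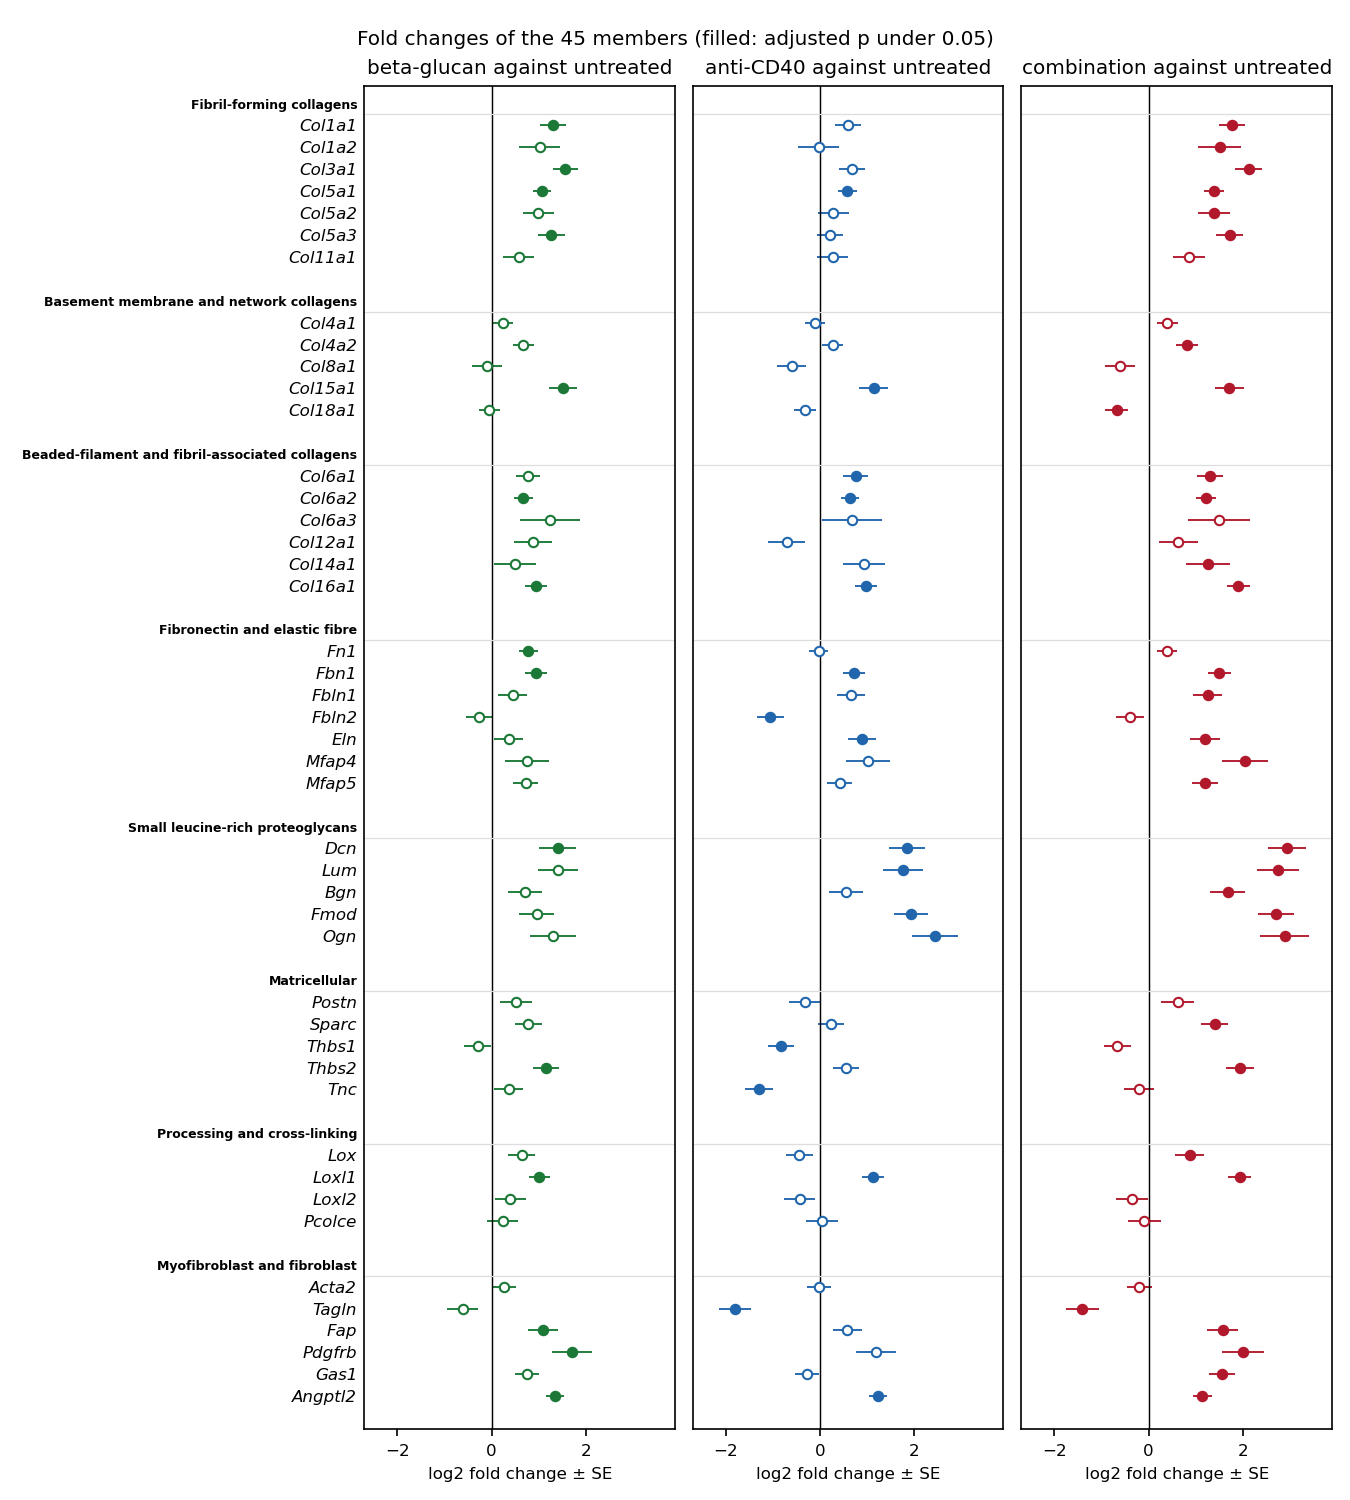
Log2 fold changes of the 45 members against untreated tumours for beta-glucan (n = 6), anti-CD40 (n = 6) and the combination (n = 5), with standard errors, ordered by role; filled symbols passed limma's adjusted p under 0.05. The proteoglycans Dcn, Lum, Fmod and Ogn sit farthest to the right with the combination, at log2 2.71 to 2.94, and Tagln sits left of 0 for anti-CD40 and the combination.

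Of the 7 fibril-forming collagen genes 4 rose with beta-glucan, 1 with anti-CD40 and 6 with the combination, with median log2 values of 1.07 with beta-glucan, 0.28 (-0.30 with equal totals) with anti-CD40 and 1.51 with the combination. Counts of this and the later role classes stand beside 5.09%, 11% and 18.2% of all genes that rose and 1.32%, 7.56% and 15.8% that fell. Col1a1 (chr11:94936224-94953042 on GRCm38) encodes the main chain of type I collagen. Col1a1 stood at 33019 to 76486 (median 54904) with beta-glucan and 16813 to 61248 (median 34964) with anti-CD40. Col1a1 counts were 85469, 65721, 70198, 81592 and 66169 in the combination tumours, against 14530.3, 21738, 27335, 15383 and 33937 in the untreated tumours. All combination tumours lay above all untreated tumours, beta-glucan tumour 4 was within the untreated range, and 2 of the anti-CD40 values were the lowest of the treated tumours at 16813 and 24225. Col1a1 rose with beta-glucan (log2 1.31 ± 0.27, adjusted p = 0.00373) and with the combination (log2 1.78 ± 0.28, adjusted p = 3.65e-05), while with anti-CD40 it did not pass (log2 0.60 ± 0.27, adjusted p = 0.132) unless anti-CD40 tumour 2 was left out (log2 0.78, adjusted p = 0.0334). Values forced to 1 distribution by quantile normalization gave log2 0.45, adjusted p = 0.534 for the combination.

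Col3a1 (chr1:45311538-45349706), whose promoter is shown above, encodes type III collagen, the partner of type I in extensible tissue. Col3a1 stood at 14626 to 42730.0 (median 22813) with beta-glucan and 5590.4 to 19871 (median 13779) with anti-CD40. With the combination Col3a1 had 39246, 35280.4, 34880.0, 30152 and 32104, against 5909, 8552, 11861, 6204 and 7842 without treatment. Beta-glucan and combination tumours lay above all untreated tumours, and 5 of the 6 anti-CD40 tumours did so, all but tumour 2. The gene rose with beta-glucan (log2 1.57 ± 0.27, adjusted p = 6.79e-04) and the combination (log2 2.13 ± 0.28, adjusted p = 4.08e-06), and stood at log2 0.68 ± 0.27, adjusted p = 0.0846 with anti-CD40. Left out alone, anti-CD40 tumour 2 brought the last value past the threshold (log2 0.91, adjusted p = 0.0088), as did untreated tumour 3 (log2 0.83, adjusted p = 0.046).

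Col5a1 (chr2:27886425-28039514) encodes the type V chain that nucleates fibrils. Col5a1 stood at 5817 to 8166 (median 6451) with beta-glucan and 3319 to 7938 (median 4196) with anti-CD40. In combination tumours 1 to 5 Col5a1 measured 10155, 6951, 8566, 9554 and 6259.9, against 2757, 2444, 3592, 2865 and 4272 in the untreated tumours. The beta-glucan and combination groups lay wholly above the untreated group, and 2 of the 6 anti-CD40 tumours did. It rose with each treatment: with beta-glucan (log2 1.07 ± 0.20, adjusted p = 0.00149), anti-CD40 (log2 0.58 ± 0.20, adjusted p = 0.0448) and the combination (log2 1.39 ± 0.21, adjusted p = 1.75e-05). The anti-CD40 call was lost in 6 of 11 fits that left out 1 tumour, and with equal totals its sign turned (log2 -0.01, adjusted p = 0.991). Col5a3, another type V chain, rose with beta-glucan (log2 1.27) and the combination (1.73) and Col1a2 and Col5a2 with the combination (1.51 and 1.40). Col11a1, a fibril chain related to type V, stood at 0.58, 0.27 and 0.85 and passed in none of the 3. Without untreated tumour 6, the highest of its group, Col11a1 passed with beta-glucan (log2 0.94, adjusted p = 0.0365) and the combination (log2 1.21, adjusted p = 0.00197), and the combination value also passed without combination tumour 3 (log2 1.05, adjusted p = 0.0217).

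The anti-CD40 tumours differed in acinar RNA, and values of these collagens are set beside it here. In the 4 anti-CD40 tumours with over 20% acinar reads, Col3a1 stood at 5590.4, 11927, 13989 and 13569.7, and in the other 2 at 15131 and 19871. The lowest value was that of tumour 2 (30.7% acinar reads) and not that of tumour 6, which had the most (59.5%). With the acinar level as a covariate the median of all 45 members with anti-CD40 was log2 0.50 in place of 0.55. In that fit 10 in place of 17 members were called, beside 11.5% in place of 18.6% of all genes. Without the 7 tumours over 20%, an alternative chosen after the data were seen that leaves 2 anti-CD40 and 2 combination tumours, the median of the 7 fibril collagens with anti-CD40 was log2 1.07 in place of 0.28, and 5 of 7 rose, Col1a1 (log2 1.12, adjusted p = 0.032) and Col3a1 (log2 1.15, adjusted p = 0.0248) among them. With beta-glucan and the combination the medians were 1.07 and 1.58. The 2 anti-CD40 tumours left were 1 and 5, the highest of their 6 for 13 and 26 of the 45 members. This cut therefore cannot separate acinar RNA from the high levels of those tumours. Whether acinar RNA accounts for the gap was not tested.

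**Figure D3:**
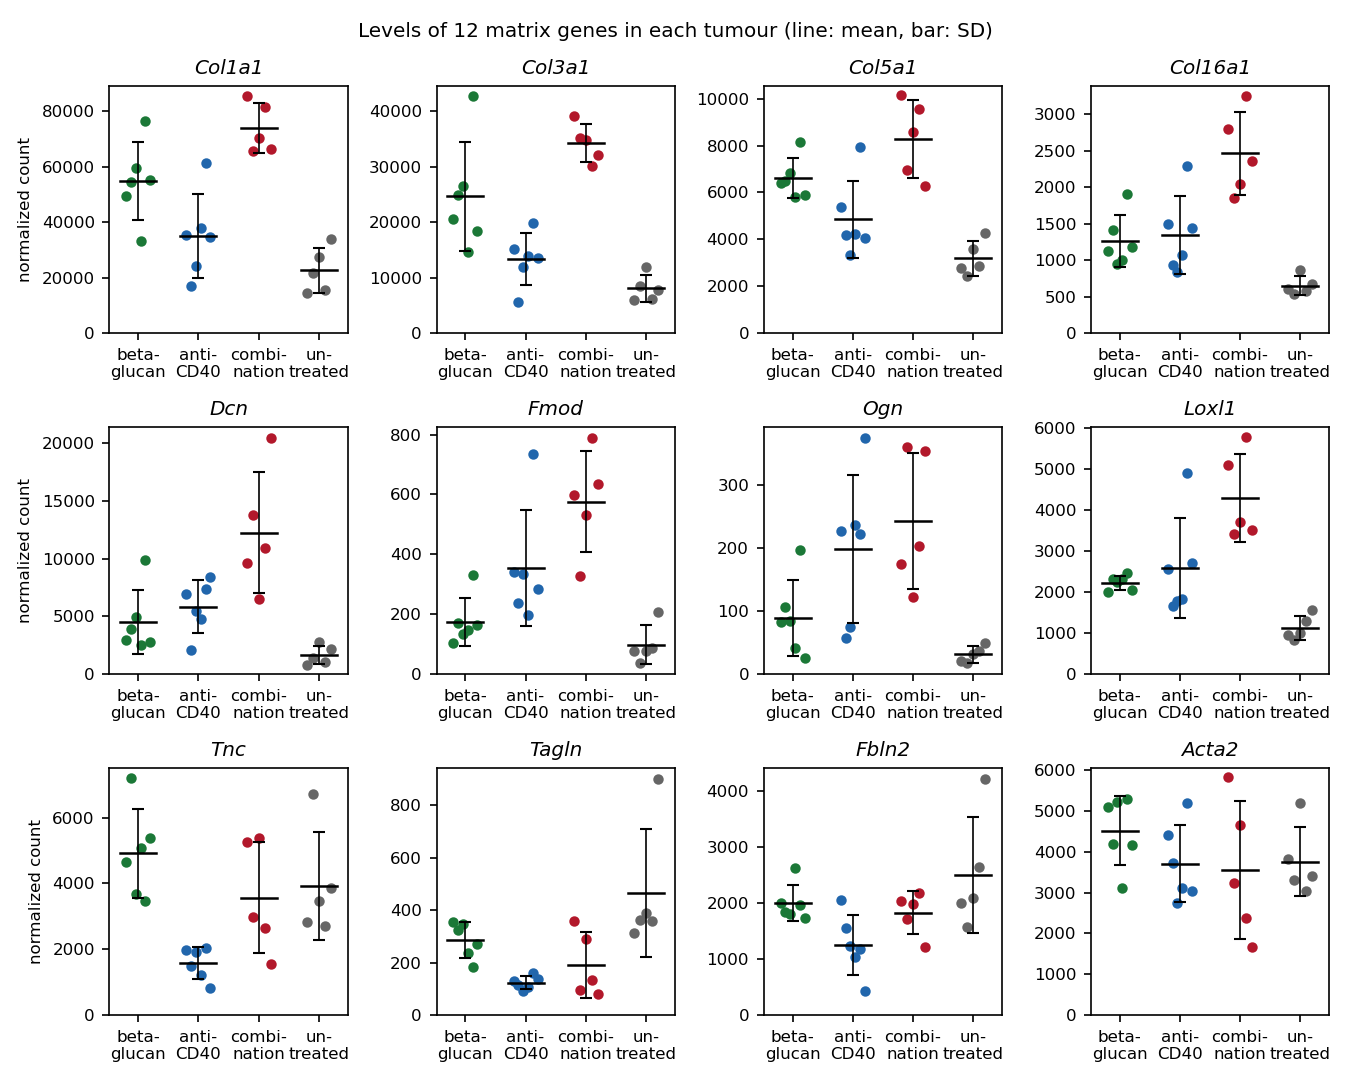
Normalized counts of 12 matrix genes in each tumour of the 4 groups (beta-glucan n = 6, anti-CD40 n = 6, combination n = 5, untreated n = 5); points are tumours, lines are group means and error bars are SDs. Col1a1, Col3a1 and Col5a1 are high with beta-glucan and the combination, Dcn and Fmod are highest with the combination, and Tnc and Tagln are low with anti-CD40.

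Of the 5 basement membrane and network collagens 1 rose with beta-glucan, 1 with anti-CD40, and 2 rose and 1 fell with the combination, with medians of 0.25 with beta-glucan, -0.10 with anti-CD40 and 0.40 (-0.05 with equal totals) with the combination; without the tumours over 20% acinar the anti-CD40 median was 0.31, of the other sign. Col4a1 (chr8:11198423-11312826) encodes a main chain of the basement membrane sheet. Col4a1 stood at 5711 to 8368 (median 7007) with beta-glucan and 4659.6 to 9347 (median 4898) with anti-CD40. The 5 combination tumours had 9288, 6986, 8849, 9832 and 5053, against 5688, 4461, 4979, 5861 and 9621 in the 5 untreated ones. The groups overlapped in all 3 comparisons, and untreated tumour 6 was the highest of its group. Col4a1 stood at log2 0.25 ± 0.21, adjusted p = 0.588 with beta-glucan, log2 -0.10 ± 0.21, adjusted p = 0.799 with anti-CD40 and log2 0.40 ± 0.22, adjusted p = 0.177 with the combination. Without untreated tumour 6 the last of these passed (log2 0.58, adjusted p = 0.0355). Its partner Col4a2 rose with the combination (log2 0.82, adjusted p = 0.00781), and with beta-glucan it passed when untreated tumour 6 was left out (log2 0.80, adjusted p = 0.0293). The annotated genes Col4a1 and Col4a2 overlap by 22 bases at the start of both, while reads come from the 3' end of transcripts. Strand use in counting is not given in the sources used here, so reads in the overlap cannot be told apart with certainty.

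Col15a1 (chr4:47208161-47313167) encodes a collagen that links basement membranes to the fibrils beneath. Col15a1 stood at 1466 to 2669.9 (median 2468) with beta-glucan and 990.1 to 3325 (median 1598) with anti-CD40. Col15a1 counts were 3266, 3136, 2363, 1621 and 2957 in the combination tumours, against 819, 963, 1247, 729.7 and 416 in the untreated tumours. The beta-glucan and combination tumours lay above all untreated tumours, and anti-CD40 tumours 2 and 3 were within the untreated range. It rose with beta-glucan (log2 1.51 ± 0.30, adjusted p = 0.00245), anti-CD40 (log2 1.14 ± 0.30, adjusted p = 0.00919) and the combination (log2 1.72 ± 0.31, adjusted p = 1.54e-04), and each call was kept in every fit that left out 1 tumour. Col18a1, the source of endostatin, fell with the combination (log2 -0.68, adjusted p = 0.0303). This call was lost with the acinar level as a covariate and without the tumours over 30% acinar reads. It was also lost without those over 20% (log2 -0.38, adjusted p = 0.376). The same held in 5 of 10 fits that left out 1 tumour, untreated tumour 6 among them (log2 -0.60, adjusted p = 0.0635). Col8a1, a network collagen of vessel walls, stood at log2 -0.09, -0.60 and -0.61 and passed in none.

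Beaded-filament and fibril-associated collagens rose in 2 of 6 with beta-glucan, 3 with anti-CD40 and 4 with the combination, with medians of 0.83 with beta-glucan, 0.72 with anti-CD40 and 1.29 with the combination. Col16a1 (chr4:130047840-130099283) encodes a fibril-associated collagen that binds integrins. Col16a1 stood at 952 to 1901 (median 1154) with beta-glucan and 834 to 2290.2 (median 1257) with anti-CD40. With the combination Col16a1 had 2794, 1856, 2048, 3249 and 2363, against 606, 538, 869.5, 570.5 and 666 without treatment. Beta-glucan and combination tumours lay above all untreated tumours, and 1 of the 6 anti-CD40 tumours was within the untreated range. Col16a1 rose with beta-glucan (log2 0.94 ± 0.23, adjusted p = 0.0149), anti-CD40 (log2 0.98 ± 0.23, adjusted p = 0.00427) and the combination (log2 1.91 ± 0.24, adjusted p = 2.23e-06). The first of these was lost without beta-glucan tumour 5 (log2 0.81, adjusted p = 0.051).

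Type VI chains form the beaded network that anchors cells. Col6a2 rose with each treatment (log2 0.68, 0.64 and 1.22), the call for beta-glucan being lost in 9 of 11 fits that left out 1 tumour, and that for anti-CD40 in 4 of 11. Col6a1 rose with anti-CD40 (log2 0.76, adjusted p = 0.0453), a call lost in 7 of 11 such fits, and with the combination (1.31). Without untreated tumour 6 it also passed with beta-glucan (log2 1.03, adjusted p = 0.00669). Col6a3 stood at 1.25, 0.69 and 1.50 with a standard error of 0.64 to 0.67, and passed in none, though with the combination it did without combination tumour 4 (log2 1.95, adjusted p = 0.028) or untreated tumour 2 (log2 1.89, adjusted p = 0.0389). Col14a1, a fibril-associated collagen, rose with the combination (log2 1.27 ± 0.47, adjusted p = 0.0396), a call lost without the 7 tumours over 20% acinar reads (log2 0.33, adjusted p = 0.736) and in 6 of 10 fits that left out 1 tumour. Col12a1, which bridges fibrils, stood at 0.88, -0.71 and 0.63. Col6a1 and Col6a2 lie 85.2 kb apart on chromosome 10, and Col3a1 and Col5a2 24.6 kb apart on chromosome 1.

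Fibronectin and elastic fibre genes rose in 2 of 7 with beta-glucan and 5 of 7 with the combination, and with anti-CD40 2 rose and 1 fell; their medians were 0.73 with beta-glucan, 0.66 with anti-CD40 and 1.20 with the combination. Fn1 (chr1:71585520-71653200) encodes fibronectin. Fn1 stood at 18219 to 22799 (median 20080.0) with beta-glucan and 8443 to 15168 (median 11699) with anti-CD40. In combination tumours 1 to 5 Fn1 measured 21629, 16565, 22079, 11289 and 9805, against 11697, 11978, 14494, 11652 and 9569 in the untreated tumours. All beta-glucan tumours lay above all untreated tumours, while the anti-CD40 tumours and the combination tumours overlapped them. It rose with beta-glucan (log2 0.78 ± 0.21, adjusted p = 0.0229), stood at log2 -0.03 ± 0.21, adjusted p = 0.945 with anti-CD40 and at log2 0.39 ± 0.22, adjusted p = 0.174 with the combination. The beta-glucan call was lost without untreated tumour 1 (log2 0.78, adjusted p = 0.0522) or 5 (log2 0.78, adjusted p = 0.0544). Combination tumours 4 and 5, over 30% acinar, had the 2 lowest values of their group, and without tumours over 30% Fn1 passed with the combination (log2 0.76, adjusted p = 0.00491).

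Fbn1 (chr2:125300594-125507993) encodes fibrillin, the scaffold of microfibrils. Fbn1 stood at 1389.6 to 2006 (median 1588) with beta-glucan and 1040.0 to 2304 (median 1251) with anti-CD40. The 5 combination tumours had 2871, 2019, 2253, 3236 and 1837, against 636, 844, 637, 759.5 and 1632 in the 5 untreated ones. Untreated tumour 6 had 1632, inside the beta-glucan range, and the other 4 untreated tumours lay below all treated tumours. Fbn1 rose with beta-glucan (log2 0.94 ± 0.24, adjusted p = 0.0164), anti-CD40 (log2 0.72 ± 0.24, adjusted p = 0.0349) and the combination (log2 1.50 ± 0.25, adjusted p = 5.23e-05). The beta-glucan call was lost without untreated tumour 1 (log2 0.84, adjusted p = 0.0599) or 3 (log2 0.84, adjusted p = 0.0519), and the anti-CD40 call in 6 of 11 such fits.

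Fbln2 (chr6:91212455-91272540), a fibulin of elastic fibres and basement membranes, went the other way with anti-CD40. Fbln2 stood at 1733 to 2618 (median 1901) with beta-glucan and 435 to 2055 (median 1211) with anti-CD40. Fbln2 counts were 2025, 1721, 1989, 2181 and 1218 in the combination tumours, against 2007, 1570.0, 2081, 2639 and 4217 in the untreated tumours. The anti-CD40 tumours other than 1 lay below all untreated tumours. Fbln2 fell with anti-CD40 (log2 -1.06 ± 0.29, adjusted p = 0.0113) and stood at log2 -0.26 with beta-glucan and -0.40 with the combination. With only these 2 groups in the fit the anti-CD40 call was lost (log2 -1.06, adjusted p = 0.0613). It was also lost with the acinar level as a covariate and without the tumours over 20% acinar reads (log2 -0.59, adjusted p = 0.189 for the latter). Fbln1, its relative, rose with the combination (log2 1.26), as did the microfibril proteins Mfap4 (2.05) and Mfap5 (1.20); Eln, which encodes elastin, rose with anti-CD40 (log2 0.89, adjusted p = 0.0425), a call lost in 7 of 11 fits that left out 1 tumour, and with the combination (1.20). Without untreated tumour 6, Mfap5 also passed with beta-glucan (log2 0.97, adjusted p = 0.0104) and Fbln1 (log2 0.91, adjusted p = 0.0267) and Mfap4 (log2 1.43, adjusted p = 0.0225) with anti-CD40. Fbln1 and Eln did not pass with the combination once tumours over 30% acinar were left out (log2 0.88, adjusted p = 0.051 and log2 0.92, adjusted p = 0.0507).

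Small leucine-rich proteoglycans had the largest medians of the 8 role classes in the 3 comparisons against untreated: 1.30 with beta-glucan, 1.85 with anti-CD40 and 2.75 with the combination. With the combination 5 of 5 rose, with anti-CD40 4 and with beta-glucan 1. Dcn (chr10:97479609-97518143) encodes decorin, which binds type I collagen and TGF-beta. Dcn stood at 2476 to 9832 (median 3417) with beta-glucan and 2090.3 to 8429.8 (median 6194) with anti-CD40. With the combination Dcn had 9618, 13787, 6462, 10953 and 20411, against 815, 1403, 2743, 1083 and 2131 without treatment. All combination tumours lay above all untreated tumours, and beta-glucan tumour 4 and anti-CD40 tumour 2 were within the untreated range. Dcn rose with beta-glucan (log2 1.41 ± 0.39, adjusted p = 0.0305), anti-CD40 (log2 1.85 ± 0.39, adjusted p = 0.00183) and the combination (log2 2.94 ± 0.41, adjusted p = 8.59e-06, a 7.66-fold difference). The beta-glucan call was lost in 6 of 11 fits that left out 1 tumour, and the other 2 calls were kept in all.

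Fmod (chr1:134037254-134048277) encodes fibromodulin, which binds the same fibrils as lumican. Fmod stood at 102 to 331 (median 156) with beta-glucan and 199 to 735 (median 310.3) with anti-CD40. In combination tumours 1 to 5 Fmod measured 597, 326, 533, 788 and 634, against 76.5, 37.1, 77.2, 88.2 and 208 in the untreated tumours. The combination tumours lay above all untreated tumours, and anti-CD40 tumours other than 4 did so too. Fmod rose with anti-CD40 (log2 1.94 ± 0.37, adjusted p = 5.63e-04) and the combination (log2 2.71 ± 0.38, adjusted p = 8.06e-06), and stood at log2 0.96 ± 0.37, adjusted p = 0.133 with beta-glucan, which passed without untreated tumour 6 (log2 1.28, adjusted p = 0.0197). Ogn (chr13:49608046-49624501) encodes osteoglycin. Ogn stood at 25.9 to 197 (median 83.6) with beta-glucan and 57.2 to 375 (median 225) with anti-CD40. The 5 combination tumours had 175, 361, 123, 203 and 355, against 19.97, 18.1, 31.6, 36.7 and 50.1 in the 5 untreated ones. Anti-CD40 and combination tumours lay above all untreated tumours. Ogn rose with anti-CD40 (log2 2.45 ± 0.49, adjusted p = 0.00105) and the combination (log2 2.89 ± 0.51, adjusted p = 1.22e-04), and stood at log2 1.30 ± 0.49, adjusted p = 0.128 with beta-glucan.

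Lum, which encodes lumican and lies 47.0 kb from Dcn on chromosome 10, rose with anti-CD40 (log2 1.76) and the combination (2.75) and missed the threshold with beta-glucan (log2 1.41 ± 0.43, adjusted p = 0.0518), which it passed without beta-glucan tumour 4 (log2 1.69, adjusted p = 0.0131) or untreated tumour 3 (log2 1.63, adjusted p = 0.0356). Bgn, which encodes biglycan, rose with the combination (log2 1.69 ± 0.38, adjusted p = 0.00126) and stood at 0.72 and 0.55 with beta-glucan and anti-CD40; without untreated tumour 6 both of these passed (log2 1.10, adjusted p = 0.0262, and log2 0.94, adjusted p = 0.0321). The anti-CD40 and combination calls of Dcn, Lum, Fmod and Ogn were kept in every fit that left out 1 tumour. Without the 7 tumours over 20% acinar reads the class median was log2 2.29 with anti-CD40 and 2.29 with the combination, and 4 and 5 of 5 rose.

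Matricellular proteins, which act on cells without being structural, split by gene. With beta-glucan 1 of 5 rose, with anti-CD40 2 fell and with the combination 2 rose, and the medians were 0.53 with beta-glucan, -0.32 with anti-CD40 and 0.62 with the combination; without the tumours over 20% acinar the anti-CD40 median was 0.62, of the other sign. Tnc (chr4:63959785-64047015) encodes tenascin-C, a large glycoprotein of remodelling stroma. Tnc stood at 3476 to 7186 (median 4874) with beta-glucan and 818 to 2022 (median 1712) with anti-CD40. Tnc counts were 5265, 2966, 5369, 2631 and 1563 in the combination tumours, against 2829, 6712, 3476, 2696 and 3862 in the untreated tumours. Every anti-CD40 tumour lay below every untreated tumour, and the beta-glucan and combination tumours overlapped them. Tnc fell with anti-CD40 (log2 -1.30 ± 0.30, adjusted p = 0.00402) and stood at log2 0.37 ± 0.30, adjusted p = 0.573 with beta-glucan and log2 -0.20 ± 0.32, adjusted p = 0.671 with the combination. The fall was kept in every fit that left out 1 tumour and was lost with the acinar level as a covariate (log2 -0.77, adjusted p = 0.0997) and without the tumours over 20% acinar reads (log2 -0.89, adjusted p = 0.0579).

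Thbs2 (chr17:14665500-14694235) encodes thrombospondin 2, which curbs vessel growth and affects fibril assembly. Thbs2 stood at 638 to 1343 (median 835) with beta-glucan and 321 to 1217 (median 574) with anti-CD40. With the combination Thbs2 had 1963, 1529, 1461, 1331 and 1328, against 289, 716, 357, 267 and 452 without treatment. The combination tumours lay above all untreated tumours, and beta-glucan tumour 4 was within the untreated range, whose highest value was tumour 2. Thbs2 rose with beta-glucan (log2 1.16 ± 0.28, adjusted p = 0.0124) and the combination (log2 1.95 ± 0.29, adjusted p = 1.75e-05) and stood at log2 0.55 ± 0.28, adjusted p = 0.185 with anti-CD40. The beta-glucan call was lost without untreated tumour 5 (log2 1.03, adjusted p = 0.0503). Thbs1, its relative and an activator of latent TGF-beta, fell with anti-CD40 (log2 -0.83 ± 0.28, adjusted p = 0.0377), and this call was lost in 7 of 11 fits that left out 1 tumour, untreated tumour 6 among them (log2 -0.79, adjusted p = 0.0634). With the combination Thbs1 stood at log2 -0.66 ± 0.29, adjusted p = 0.0827 and passed without combination tumour 2 (log2 -0.84, adjusted p = 0.0335).

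Postn (chr3:54361109-54391037) encodes periostin, a product of activated fibroblasts. Postn stood at 579 to 1085 (median 967) with beta-glucan and 239 to 1009.8 (median 512) with anti-CD40. In combination tumours 1 to 5 Postn measured 1300.4, 1327, 653, 857 and 854, against 410.1, 1263, 768, 410.1 and 591 in the untreated tumours. The groups overlapped in all 3 comparisons, with untreated tumour 2 the highest of its group. Postn stood at log2 0.53 ± 0.34, adjusted p = 0.446 with beta-glucan, log2 -0.32 ± 0.34, adjusted p = 0.567 with anti-CD40 and log2 0.62 ± 0.36, adjusted p = 0.195 with the combination. Sparc, a collagen-binding glycoprotein, rose with the combination (log2 1.41) and stood at 0.79 and 0.23 with beta-glucan and anti-CD40; without untreated tumour 6, the highest of its group, it passed with beta-glucan (log2 1.06, adjusted p = 0.00825). Quantile normalization took the combination value to log2 0.07, adjusted p = 0.926.

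Of the 4 processing and cross-linking genes 1 rose with beta-glucan, 1 with anti-CD40 and 2 with the combination (medians 0.52 with beta-glucan, -0.20 with anti-CD40 and 0.39 (-0.06 with equal totals) with the combination). Loxl1 (chr9:58287738-58313186) encodes a lysyl oxidase needed for elastic fibres. Loxl1 stood at 2001 to 2455 (median 2277) with beta-glucan and 1672 to 4910.0 (median 2199) with anti-CD40. The 5 combination tumours had 5102, 3417, 3703, 5785 and 3525, against 951, 825, 1012, 1293 and 1551 in the 5 untreated ones. All tumours of each treatment lay above all untreated tumours. Loxl1 rose with beta-glucan (log2 1.02 ± 0.23, adjusted p = 0.00766), anti-CD40 (log2 1.12 ± 0.23, adjusted p = 0.0013) and the combination (log2 1.94 ± 0.24, adjusted p = 1.79e-06, a 3.83-fold difference), and each call was kept in every fit that left out 1 tumour. Lox, the main lysyl oxidase of fibril collagens, rose with the combination (log2 0.87 ± 0.30, adjusted p = 0.0266), a call lost in 6 of 10 such fits, and stood at 0.65 with beta-glucan and -0.44 with anti-CD40. Without untreated tumour 6 Lox passed with beta-glucan (log2 0.92, adjusted p = 0.03). Loxl2 stood at 0.40, -0.43 and -0.35, and Pcolce, which speeds the trimming of procollagen, at 0.24, 0.04 and -0.09; neither passed.

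Myofibroblast and fibroblast genes did not move as 1 group: 3 of 6 rose with beta-glucan, 1 rose and 1 fell with anti-CD40, and 4 rose and 1 fell with the combination (medians 0.92 with beta-glucan, 0.28 (-0.30 with equal totals) with anti-CD40 and 1.35 with the combination). Acta2 (chr19:34241090-34255590) encodes alpha smooth muscle actin. Acta2 stood at 3116 to 5283 (median 4649) with beta-glucan and 2734 to 5203 (median 3417) with anti-CD40. Acta2 counts were 5840.0, 3224, 4642, 2369.7 and 1657 in the combination tumours, against 3822, 3307, 5193, 3045 and 3406 in the untreated tumours. The groups overlapped in all 3 comparisons, and combination tumours 4 and 5 had the lowest values of all 22. Acta2 stood at log2 0.27 ± 0.25, adjusted p = 0.634 with beta-glucan, log2 -0.03 ± 0.25, adjusted p = 0.953 with anti-CD40 and log2 -0.20 ± 0.27, adjusted p = 0.609 with the combination. Tagln (chr9:45929619-45936058) encodes transgelin, an actin-binding protein of smooth muscle and myofibroblasts. Tagln stood at 185 to 356 (median 297) with beta-glucan and 92.4 to 159.7 (median 123) with anti-CD40. With the combination Tagln had 359, 95.0, 290.1, 134 and 80.5, against 311, 363, 390.5, 359 and 900.3 without treatment. Every anti-CD40 tumour lay below every untreated tumour, and combination tumour 1 exceeded the lowest untreated value. Tagln fell with anti-CD40 (log2 -1.81 ± 0.33, adjusted p = 4.76e-04) and the combination (log2 -1.40 ± 0.35, adjusted p = 0.00311) and stood at log2 -0.61 ± 0.33, adjusted p = 0.332 with beta-glucan. The combination call was lost without the tumours over 30% acinar (log2 -0.99, adjusted p = 0.0567) and over 20% (log2 -0.40, adjusted p = 0.466).

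Fap (chr2:62500943-62574075) encodes fibroblast activation protein, a surface protease of activated fibroblasts. Fap stood at 199.6 to 291 (median 246) with beta-glucan and 114 to 371 (median 159.6) with anti-CD40. In combination tumours 1 to 5 Fap measured 409, 231, 336, 521 and 290.0, against 95.7, 123, 66.7, 84.8 and 292 in the untreated tumours. Untreated tumour 6 lay above all beta-glucan tumours and inside the anti-CD40 and combination ranges, and the other 4 untreated tumours overlapped the anti-CD40 tumours but not those of the other 2 treatments. Fap rose with beta-glucan (log2 1.09 ± 0.32, adjusted p = 0.0396) and the combination (log2 1.58 ± 0.33, adjusted p = 6.63e-04) and stood at log2 0.58 ± 0.32, adjusted p = 0.216 with anti-CD40. Tumour 6 weighed on these values: without it the anti-CD40 contrast passed (log2 0.92, adjusted p = 0.0205). The beta-glucan call was lost in 10 of the 11 fits that left out 1 tumour.

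Angptl2 (chr2:33216069-33247717) encodes a secreted angiopoietin-like protein made by stromal cells. Angptl2 stood at 425 to 899.9 (median 653) with beta-glucan and 484 to 718 (median 628) with anti-CD40. The 5 combination tumours had 678, 624, 434, 557 and 603, against 275, 233, 340.4, 271 and 195 in the 5 untreated ones. All treated tumours lay above all untreated tumours. It rose with beta-glucan (log2 1.34 ± 0.19, adjusted p = 6.97e-05), anti-CD40 (log2 1.23 ± 0.19, adjusted p = 5.89e-05) and the combination (log2 1.14 ± 0.20, adjusted p = 8.33e-05), and every call was kept in each fit that left out 1 tumour. Pdgfrb, the PDGF receptor of pericytes and fibroblasts, rose with beta-glucan (log2 1.71 ± 0.43, adjusted p = 0.0171) and the combination (a 4.01-fold difference, adjusted p = 0.00136) and stood at log2 1.19 ± 0.43, adjusted p = 0.0551 with anti-CD40. The beta-glucan call was lost without beta-glucan tumour 5 (log2 1.56, adjusted p = 0.0536), and the anti-CD40 value passed in 4 of 11 fits that left out 1 tumour. Gas1, a membrane protein of fibroblasts, rose with the combination (log2 1.56 ± 0.27, adjusted p = 9.40e-05) and stood at 0.75 and -0.27 with beta-glucan and anti-CD40. With beta-glucan Gas1 passed without untreated tumour 6 (log2 0.97, adjusted p = 0.014) or beta-glucan tumour 6 (log2 0.88, adjusted p = 0.0458).

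The combination was then set against each single agent. Against beta-glucan, 7 members were higher (15.6%, against 6.49% of all genes): Dcn (log2 1.53 ± 0.39, adjusted p = 0.0111), Fmod (log2 1.76 ± 0.37, adjusted p = 0.00265), Lum (log2 1.34), Ogn (1.59), Col16a1 (0.97), Loxl1 (0.92) and Gas1 (0.81). So 4 of the 5 small leucine-rich proteoglycans were in this list and none of the 7 fibril-forming collagens, for which log2 was 0.28 to 0.56 with adjusted p of 0.178 or more. Limma called 0 members lower (7.61% of all genes, and 3 members at an unadjusted p under 0.05), edgeR 0 and DESeq2 1. The count of 7 was 4 without beta-glucan tumour 1, 4 or 6 or combination tumour 4, 1 without the tumours over 30% acinar and 0 without those over 20%. Calls over all genes dropped too, from 14.1% to 6.91% without the tumours over 30% acinar and 1.58% without those over 20%.

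Against anti-CD40, 9 of the 45 members were higher with the combination, beside 0.658% of all genes. They were 4 fibril collagens, Col1a1 (log2 1.18 ± 0.27, adjusted p = 0.0321), Col3a1 (log2 1.45 ± 0.27, adjusted p = 0.0119), Col5a1 (log2 0.81) and Col5a3 (1.51), with Col16a1 (0.93), Sparc (1.18), Thbs2 (1.40), Lox (1.32) and Gas1 (log2 1.83 ± 0.26, adjusted p = 0.00151). Limma, edgeR and DESeq2 each called 0 members lower (0.826% of all genes by limma), and 0 had an unadjusted p under 0.05. This count moved with single tumours: it was 21 without anti-CD40 tumour 5, 3 without anti-CD40 tumour 2 or 3 or combination tumour 1, and 4 without anti-CD40 tumour 4 or combination tumour 4. It was 1 without the tumours over 30% acinar, 0 without those over 20%, and 1 with only these 2 groups in the fit. Of all genes 1.48% were called as reported, and 0.105%, 0% and 0.042% in these fits. The lower counts are therefore not particular to the members.

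Anti-CD40 set against beta-glucan gave 7 members lower with anti-CD40 (15.6%, against 0.49% of all genes): Tnc (log2 -1.67 ± 0.29, adjusted p = 0.00235), Col12a1 (log2 -1.59), Tagln (-1.20), Lox (-1.09), Col5a3 (-1.06), Gas1 (-1.02) and Fn1 (log2 -0.81 ± 0.20, adjusted p = 0.0294). Every anti-CD40 tumour lay below every beta-glucan tumour for Fn1, Tnc, Lox, Tagln and Gas1; such a gap below held for 0.686% of all genes. Limma called 0 members higher (1.61% of all genes, and 2 members at an unadjusted p under 0.05), edgeR 0 and DESeq2 0. Tnc was called in every fit that left out 1 tumour and the other 6 were not: the count was 1 without beta-glucan tumour 1, 2 or 3, 2 without anti-CD40 tumour 2 or 4, and 3 without beta-glucan tumour 4 or 6 or anti-CD40 tumour 3 or 6. Acinar RNA differed between these groups, and the count was 2 without tumours over 30% acinar and 0 without those over 20%, where the median member stood at log2 0.09 in place of -0.40. Calls over all genes, in either direction, were 2.1% as reported, 1.35% without tumours over 30% and 0.932% without those over 20%.

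Whether the combination departed from the sum of the single effects was tested by the interaction, the combination's log2 value against untreated less those of both single agents. Limma called 0 of 45 members (0.021% of all genes), with 5 at an unadjusted p under 0.05; edgeR called 0 and DESeq2 1. The smallest p was that of Angptl2 (log2 -1.43 ± 0.27, adjusted p = 0.0537), whose single effects of log2 1.34 and 1.23 stood beside 1.14 with the combination. Its interaction passed in 4 of the 22 fits that left out 1 tumour. Among them were those without beta-glucan tumour 6 (log2 -1.55, adjusted p = 0.025) and without untreated tumour 6 (log2 -1.33, adjusted p = 0.0438). For Dcn the interaction was log2 -0.32 with a 95% interval of -1.46 to 0.82, and for Col1a1 -0.13 with -0.92 to 0.66. Intervals of this width leave room for a departure from additivity in either direction.

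Ratios of reads within a tumour do not depend on the size factor. Dcn reads per Col1a1 read were 0.05 to 0.129 with beta-glucan, 0.12 to 0.244 with anti-CD40, 0.0921 to 0.308 with the combination and 0.0561 to 0.1 in untreated tumours. The anti-CD40 range lay above the untreated range and the beta-glucan range overlapped it. Tnc reads per Dcn read were 0.353 to 2.06, 0.097 to 0.716 and 0.0766 to 0.831, against 1.27 to 4.79, so that every anti-CD40 and combination tumour lay below every untreated tumour. The same held for Tnc per Col1a1 read, at 0.0237 to 0.0891 with anti-CD40 and 0.0236 to 0.0765 with the combination, against 0.114 to 0.309.

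Acta2 reads per Col1a1 read were 0.0691 to 0.103 with beta-glucan, 0.0828 to 0.221 with anti-CD40 and 0.025 to 0.0683 with the combination, against 0.1 to 0.263 in untreated tumours. Combination tumours had the lowest range, below all beta-glucan, anti-CD40 and untreated tumours. Fbln1 reads per Fbln2 read were 0.18 to 0.367, 0.246 to 1.51 and 0.339 to 0.873, against 0.111 to 0.182, with the anti-CD40 and combination ranges above the untreated range. Col3a1 per Col1a1 read, a ratio of 2 fibril chains, was 0.334 to 0.559, 0.324 to 0.492 and 0.37 to 0.537, against 0.231 to 0.434, and the groups overlapped. The ratios were picked with the results known and are given as a description, with no test.

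**Figure D4:**
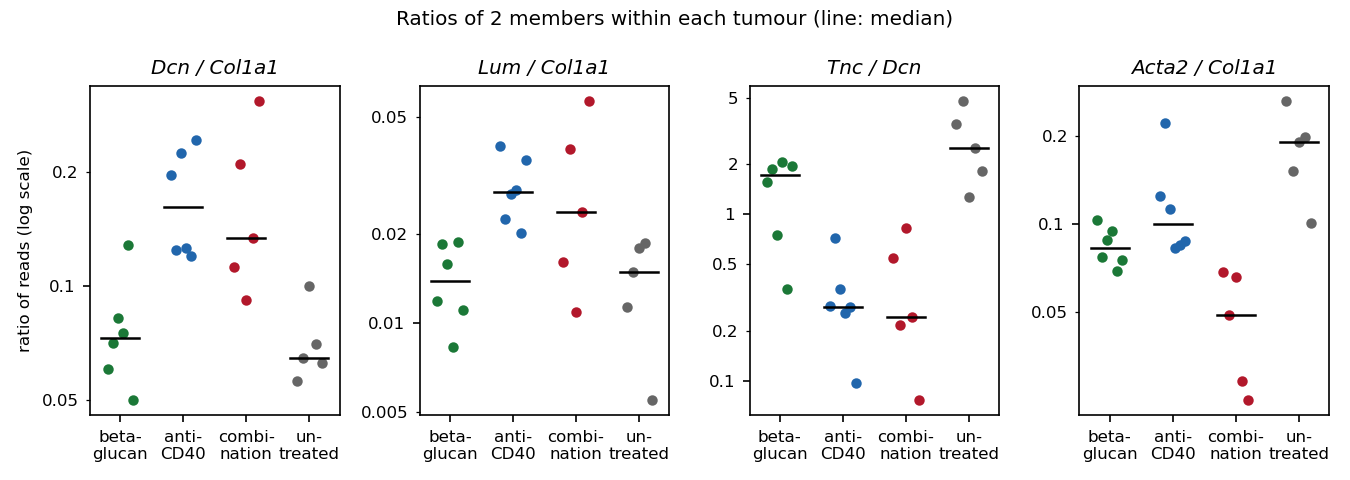
Ratios of reads of 2 members within each tumour (Dcn per Col1a1, Lum per Col1a1, Tnc per Dcn, Acta2 per Col1a1), on log axes, by group (beta-glucan n = 6, anti-CD40 n = 6, combination n = 5, untreated n = 5); points are tumours and lines are group medians. Tnc per Dcn read is 1.27 to 4.79 in untreated tumours and lower in every anti-CD40 (0.097 to 0.716) and combination (0.0766 to 0.831) tumour.

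Genes that make and sense the matrix but are not among the 45 were counted from lists fixed for this purpose. Of all genes tested, 5.09% rose and 1.32% fell with beta-glucan, 11% and 7.56% with anti-CD40, and 18.2% and 15.8% with the combination. Several of the list counts lie near these shares and are then no result about a list. Of 16 genes of collagen synthesis in the cell, 2 rose with beta-glucan (P4ha3, a prolyl hydroxylase subunit, log2 1.15, and P3h1, 0.81), 2 rose and 2 fell with anti-CD40 (P4ha3 0.90 and the exporter Mia3 0.62; Colgalt1 -0.95 and P3h4 -0.88), and 4 rose and 2 fell with the combination, Colgalt1, a collagen galactosyltransferase, and P3h4 again being lower (-0.92 and -1.31). Of 9 extracellular processing genes 1, 2 and 3 rose with beta-glucan, anti-CD40 and the combination; Adamts2, the procollagen N-proteinase, rose in all 3 (1.67, 1.55 and 2.52), while Tll1 fell with the combination (-3.05). Of 9 collagen receptors Lair1, an inhibitory receptor of leukocytes, rose with each treatment (1.17, 1.44 and 2.19). The fibroblast receptors Ddr2 (1.35) and Itga11 (1.68) rose with the combination. The epithelial receptors Ddr1 (-1.68) and Itga2 (-3.06) and the shared subunit Itgb1 (-0.61) fell with the combination. Itga2 also fell with anti-CD40 (-1.60).

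Of 18 genes of TGF-beta signalling and its targets, 2 rose with beta-glucan, 3 rose and 3 fell with anti-CD40, and 4 rose and 7 fell with the combination. Of all genes 5.09%, 11% and 18.2% rose in these comparisons, and 1.32%, 7.56% and 15.8% fell. The 4 that rose with the combination were near that share. Tgfbi, a TGF-beta-induced matrix protein, rose with each treatment (log2 1.88, 1.78 and 2.69), as did the co-receptor Tgfbr3 (1.83, 2.10 and 3.19), while the signal transducers Smad2 (-0.53 and -0.89) and Smad4 (-0.45 and -0.59) and the inhibitor Smad7 (-0.78 and -1.15) fell with anti-CD40 and the combination. Of 14 basement membrane genes other than collagens, Lama1 rose with beta-glucan (1.55), the only call of the 14 there. With anti-CD40 1 rose and 4 fell, and with the combination 3 rose and 6 fell: Lama3 (-2.60) and Lamb3 (-2.11), chains of laminins of epithelia, fell with the combination, and Lama4 (1.18), of vessel basement membranes, and Nid2 (2.66) rose. Tumour epithelium markers fell in the same comparisons, as given above. The part of epithelium in these falls was not tested.

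**Figure D5:**
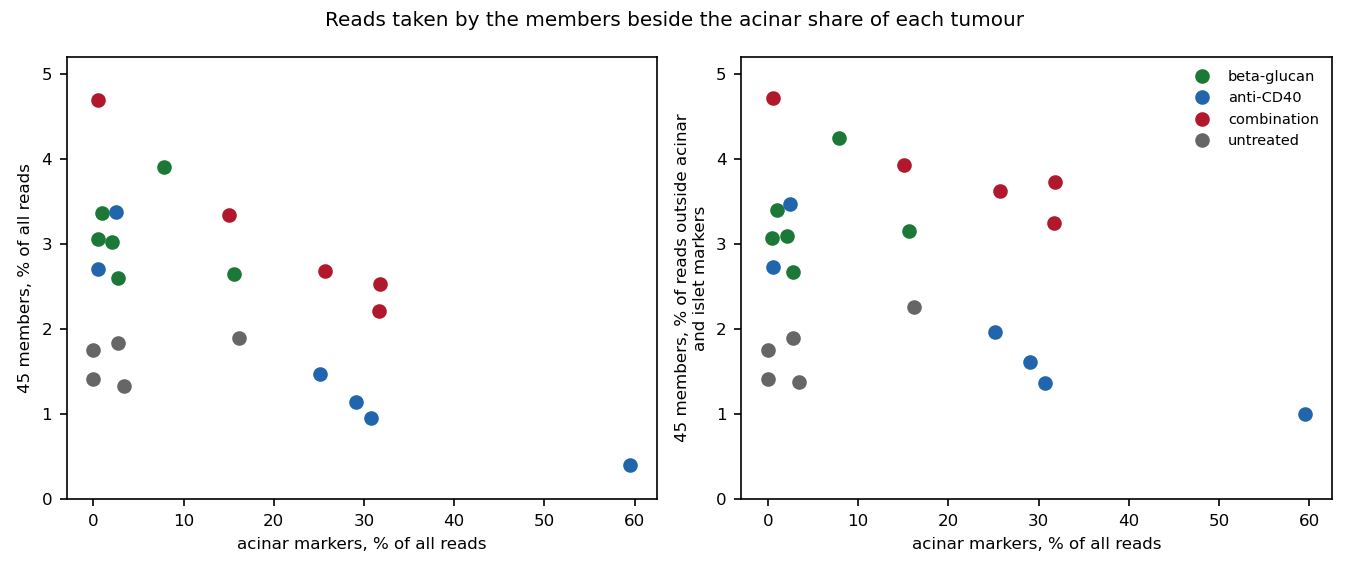
The 45 members' share of all reads (left) and of reads outside acinar and islet markers (right), in percent, against the share of reads from acinar markers, in percent; each point is 1 of the 22 tumours, coloured by group. The 4 anti-CD40 tumours with over 20% acinar reads are the lowest treated tumours in the right panel, and the combination tumours lie at 3.25 to 4.72% there, 3 of them with over 20% acinar reads.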

How the data were processed

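RNA was measured in 22 tumours by 3' sequencing. Per the labels' protocols, RNA came from 5 µm sections of formalin-fixed, paraffin-embedded tumour, and libraries were made from 100 ng with a QuantSeq forward kit. Per the submitters' processing notes, STAR, the mm10 genome and DESeq2 were used, with no versions given; which program, annotation and strand setting served for counting is not given in the sources used here. The deposited signal is a table of read counts that the authors had scaled by 1 size factor per tumour, for 17966 genes. Dividing each tumour's values by their smallest step gave whole reads for 100% of the 395252 values within 0.001 reads; for beta-glucan tumours 1 and 5 the step was within 1% of 1. Depth was 6.33 to 21.2 M reads.

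Testing covered the 14278 genes that reached 10 normalized counts in 5 or more tumours. One limma model (3.58.1, R 4.3.3) of log2(value + 1) held the 4 group means, with trended and robust moderation of the variance. Its two-sided p-values were adjusted by Benjamini-Hochberg over all genes tested in a contrast, with a threshold of 0.05. The ± after a log2 value is its standard error. Counts of members and medians are read beside those of all genes. EdgeR 4.0.16 (quasi-likelihood) and DESeq2 1.42.0 on recovered reads were alternatives, with other scalings, a pseudocount of 8, no filter, a replicate block, an acinar covariate, and leaving out each tumour or the acinar-rich tumours. Simulated counts with known changes served as a check of the main limma fit.

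The members, role classes, lists and tests were chosen with earlier results of these data known. Values per tumour are given for the member with the smallest p of each role class in each contrast against untreated and for Col1a1, Col3a1, Col4a1, Fn1, Postn, Tnc, Dcn, Acta2 and Fap; Ogn and Tagln were added after their values were seen. Of genes that are not members, those with the smallest p of a list, and those against its direction, are named. Gene coordinates are from GENCODE M21 (GRCm38), and promoters from RefSeq (GRCm38.p6). In 50 pairs of tumours of the same group, chi-square per degree of freedom was 13.4 or more, so no pair agreed within sampling noise. Nothing in the labels says that the tumours of a group are from separate mice; p-values then measure the spread between these samples, which may be technical.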

Additional observations from a re-analysis of the deposited data

Results flagged for a closer look

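In 26 of 180 groups of tumours (45 members in 4 groups), over 19 genes, 1 tumour lay so far from the rest of its group that its gap to the nearest other tumour exceeded the Dixon limit. For normally spread values chance flags about 1 in 20 groups, and genes in 1 tumour are not independent. The limit was applied to counts without a log, where high values stand apart more readily than low ones. Neither the number of flags nor their side can therefore be set against chance. In all 26 the tumour was the highest of its group, and values are normalized counts.

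Untreated tumour 6 accounted for 10 of them: Col11a1 (413), Col4a1 (9621), Fbn1 (1632), Mfap4 (311), Mfap5 (3451), Bgn (25940.0), Sparc (56220.0), Pcolce (8025), Tagln (900.3) and Fap (292). For Sparc the next untreated tumour had 25930.0 and for Fap 123. This tumour also had the highest acinar share (16.2%), fibroblast marker sum (5629.8) and macrophage share (0.625%) of the 5 untreated tumours. Its share of reads from Rn45s, a ribosomal RNA precursor, was the highest of the 5 as well (3.74%), and it had the fewest genes detected (14595). The part of these traits in the result was not tested.

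Anti-CD40 tumour 5 accounted for 8: Col5a3 (1381), Col4a1 (9347), Col4a2 (7788), Bgn (29820.0), Fmod (735), Sparc (63480.0), Loxl1 (4910.0) and Fap (371). The next anti-CD40 tumour had 340.3 for Fmod and 12750.0 for Bgn. Its acinar share was 2.48%, its epithelial marker sum (4169.1) was the lowest of the 6 and its Rn45s share (2.59%) the highest. In anti-CD40 tumour 2, Pcolce (7363) stood apart.

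Beta-glucan tumour 5 was the highest for Dcn (9832), Fmod (331) and Thbs2 (1343), and beta-glucan tumour 4 for Fbln2 (2618). The Rn45s share of beta-glucan tumour 5 (1.84%) was the lowest of its group. Combination tumour 4, with 31.8% acinar reads, was the highest for Fbln1 (1905), Eln (2509) and Mfap4 (1048). It also had the highest Rn45s share (4.79%) and the fewest genes detected (14078) of its group.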

How the results depend on the processing

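Of the counts of members called, 67 of 90 values under another setting (other than leaving out 1 tumour) were within 1.5 times the reported count. Those that were not are as follows, and the cause was not tested. With equal totals the counts were 1 with beta-glucan, 7 with anti-CD40 and 14 with the combination against untreated (15, 17 and 32 as reported). Of all genes 1.8%, 16.9% and 25.5% were then called. The counts were 0 for the combination against beta-glucan, 1 against anti-CD40 and 2 for anti-CD40 against beta-glucan (7, 9 and 7 as reported). Of all genes 8.45%, 0.056% and 0.287% were then called. Col5a1 with anti-CD40 turned to log2 -0.01 (value -0.0068). With the groups of 1 contrast alone in the fit, 10 members passed with anti-CD40, 12 for the combination against beta-glucan and 1 against anti-CD40 (11.9%, 18.4% and 0.042% of all genes). The acinar level as a covariate gave 10 with anti-CD40 and 2 for anti-CD40 against beta-glucan (11.5% and 1.13% of all genes). DESeq2 gave 13 for the combination against beta-glucan and 1 for the interaction (17.9% and 0.686% of all genes). EdgeR gave 5 for the combination against anti-CD40 and 3 for anti-CD40 against beta-glucan (1.04% and 1.8% of all genes). Quantile normalization gave 5 for the combination against anti-CD40 (1.79% of all genes). Without the 4 tumours over 30% acinar, the combination against beta-glucan and against anti-CD40 gave 1 and 1, and anti-CD40 against beta-glucan 2. Of all genes 6.91%, 0.105% and 1.35% were then called. Without the 7 over 20%, chosen after the data were seen, these 3 counts were 0, 0 and 0, beside 1.58%, 0% and 0.932% of all genes. In that fit 20, 21 and 29 members passed against untreated, beside 9.07%, 18.3% and 21.6% of all genes. Leaving out 1 tumour gave 10 to 24 with beta-glucan, 11 to 20 with anti-CD40, 29 to 33 with the combination, 4 to 9 for the combination against beta-glucan, 3 to 21 against anti-CD40, 1 to 7 for anti-CD40 against beta-glucan and 0 to 1 for the interaction. The contrasts against untreated rest on 5 untreated tumours, of which tumour 6 stood apart. Without the 7 tumours over 20% acinar only 2 anti-CD40 and 2 combination tumours remain. Those anti-CD40 tumours are 1 and 5, the highest of their group for 13 and 26 members.

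The labels number tumours 1 to 6 with each single agent, 1 to 5 with the combination and 1, 2, 3, 5 and 6 untreated. For combination tumour 5 the sample description ends in another number than the title, and the title's number was used. Over 30 same-number pairs of tumours, deviations from the group means correlated at -0.27 to 0.34 (median 0.03, 8 over 0.1). These values gave no sign that tumours with the same number were paired, though the number of combination tumour 5 is in doubt. With the replicate number as a block the counts were 15, 14 and 32 against untreated for beta-glucan, anti-CD40 and the combination, 10 and 8 for the combination against beta-glucan and anti-CD40, 7 for anti-CD40 against beta-glucan and 1 for the interaction.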
